A study of Mus musculus with 12 samples.

Results

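Bone morphogenetic proteins (BMPs) are secreted factors that direct mesenchymal cells towards bone, and the 10 genes described here cover one arm of their pathway: the ligands Bmp2, Bmp4 and Bmp6, the receptors Bmpr1a and Bmpr2, the signal transducer Smad1, its inhibitor Smad6, and the target genes Id1, Id2 and Id3. They were taken by name from the 54532 mouse genes of an RNA-seq table, and the set was chosen by the FPKM of Bmp4, which was higher in Chd7 knockout than in control libraries in both media. That difference is therefore a description with no test. The other genotype differences of the set are tested, as is Bmp4 between media. CHD7 is an ATP-dependent chromatin remodeler, and the laboratory that made the data had earlier linked it to SMAD1 in human mesenchymal cells.

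A BMP dimer binds a complex of type I receptors, such as BMPR1A, and type II receptors, such as BMPR2, and the type I receptor phosphorylates SMAD1 and its relatives SMAD5 and SMAD9. These enter the nucleus with SMAD4 and bind regulatory DNA. Among the genes that respond most directly are Id1, Id2 and Id3, which encode proteins that dimerise with basic helix-loop-helix factors and keep them off DNA. Smad6 and Smad7 are also induced and act back on the receptors, so their RNA is a read-out of the pathway as well as a brake on it. In bone marrow stromal cells BMP signals are known to promote bone formation and, in some settings, adipocyte formation.

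The cells were bone marrow mesenchymal stem cells (MSCs) from 4-week-old C57BL/6 mice, flushed from limb bones and used at passage 3. Control cells came from Chd7fl/fl mice, which carry loxP sites but no Cre and are labelled WT. Knockout cells came from Prx1-cre;Chd7fl/fl mice, in which a Prx1 promoter active in limb mesenchyme drives Cre and removes a Chd7 exon, so the deletion is aimed at mesenchymal cells and not at other cells of the culture. Osteogenic medium held ascorbic acid (50 µM), β-glycerophosphate (10 mM) and dexamethasone (10 nM). Adipogenic medium held dexamethasone (1 µM), insulin (10 µg/ml) and isobutylmethylxanthine (0.5 µM). Each of the 4 groups had 3 libraries, 12 in all. No source used here says that the 3 came from separate mice, so p-values measure the spread between these libraries, which may be technical.

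Values are FPKM, fragments per kilobase of gene with depth divided out, so levels of different genes can be set side by side. From the steps between low values, 17490797 to 21093450 fragments on genes were recovered for each library. Fold changes are on the scale of log2(FPKM + 1), on which changes of low genes appear too small. Unless another test is named, an adjusted p is from limma with Benjamini-Hochberg adjustment over the 12871 genes that reached 1 FPKM in 3 or more libraries, and a gene passed at an adjusted p under 0.05. Of the 10 genes, 8 entered this test. Bmp2 and Bmp6 were too low, and Bmp4 entered only because of its level in the libraries in which it was high.

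Before the results, the libraries themselves need description. Chd7 was 2.64, 2.67 and 2.77 FPKM in control and 2.03, 2.35 and 2.28 FPKM in knockout libraries under osteogenic induction (log2 fold change -0.20 ± 0.0787 (SE), adjusted p = 0.16). Adipogenic libraries had 2.26, 1.81 and 2.23 FPKM in control and 2.03, 2.35 and 2.48 FPKM in knockout libraries (0.09 ± 0.0787, adjusted p = 0.428). The value of a whole gene says little about the loss of 1 exon and so does not check the genotype labels. Control adipogenic library 2 stood apart: its log2 values correlated across genes at a mean r of 0.941 with the other libraries of its group and of 0.967 with the adipogenic knockout libraries. Macrophage genes were abundant in all 12 libraries, with Lyz2 at 3840 to 14400 FPKM. The paper identified these MSCs with antibodies to CD29 and CD90.2. The CD90.2 gene Thy1 lay between 0.206 and 1.03 FPKM and the CD29 gene Itgb1 between 317 and 412 FPKM. The antibodies read protein by flow cytometry, whereas these values are RNA taken after induction, so they do not check that identification.

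The summed level of 8 macrophage markers was 10431 to 10838 FPKM in osteogenic control and 12301 to 12531 FPKM in osteogenic knockout libraries. Most of this sum was Lyz2, with means of 9180 FPKM in osteogenic control and 11100 FPKM in osteogenic knockout libraries. Each of the other macrophage markers had a lower mean in osteogenic knockout libraries, such as Csf1r at 187 against 301 FPKM. By test, 1 of the 8 was lower in knockout (5 lower and 1 higher when only the osteogenic libraries were fitted). After adipogenic induction the sums were 16387 and 16830 FPKM in control libraries 1 and 3, 6887 FPKM in control library 2 and 4814 to 6263 FPKM in knockout libraries, and 6 of the 8 were lower in knockout (1 lower when only the adipogenic libraries were fitted). Among all genes 4.15% were lower in osteogenic and 16.5% in adipogenic knockout libraries. When only the libraries compared were fitted, 3418 and 1671 of all 12871 genes passed. The sum of 8 endothelial markers, Cldn5 among them at 0 in 11 libraries, was 3.9 to 4.22 FPKM in control and 11.3 to 12.6 FPKM in knockout osteogenic libraries, and 4.65 to 6.23 against 9.01 to 10.6 FPKM in adipogenic medium. Of the 5 endothelial markers tested, 4 were higher in knockout in osteogenic and 3 in adipogenic medium, where 4.94% and 16.7% of all genes were higher. Pecam1, 1 of the 4, passed the filter on low values only through the osteogenic knockout libraries. Emcn reached 1 FPKM in no control library, and Cdh5 only in control adipogenic libraries 1 and 3 (1.06 and 1.23 FPKM). Both therefore passed the filter only through knockout libraries. The differences of Pecam1 in osteogenic medium and of Emcn and Cdh5 in both media are descriptions with no test. The sum of 10 mesenchymal stromal markers was 1259 to 1432 FPKM in osteogenic control, 1408 to 1556 in osteogenic knockout, 1621 to 1888 in adipogenic control and 1738 to 1793 FPKM in adipogenic knockout libraries. Of the adipocyte list, Adipoq, Plin1, Cidec and Lep stayed under 1 FPKM in every library. Its other genes were not low, with Fabp4 at 12.7 to 39.2, Pparg at 3.85 to 12.4 and Cebpa at 40.7 to 108 FPKM. The part of these cell types in the results on BMP genes was not tested, and in bulk RNA fewer cells of a type and less RNA per cell cannot be told apart.

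**Figure D1:**
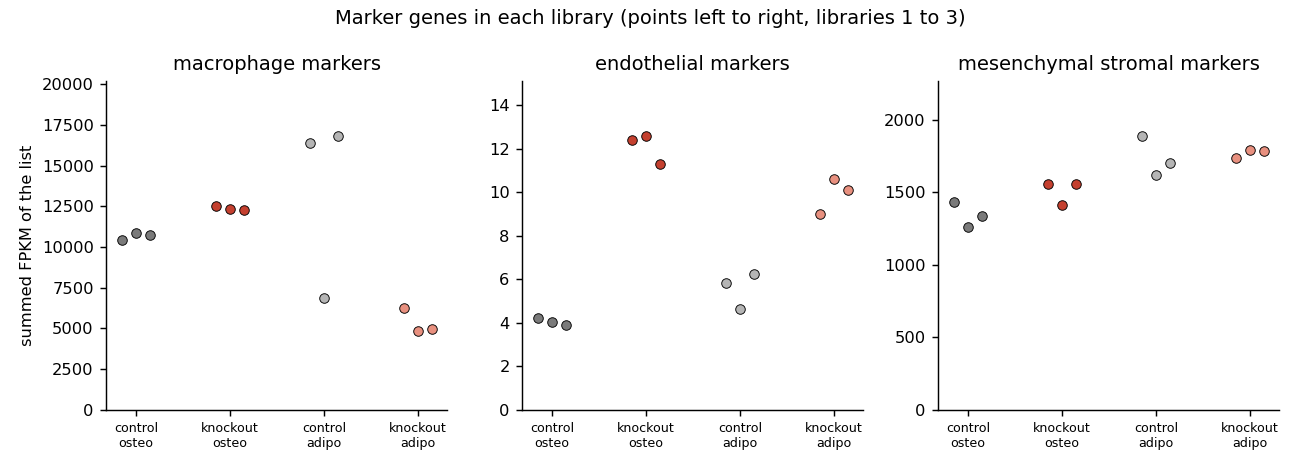
Summed FPKM (y axis, linear) of 8 macrophage, 8 endothelial and 10 mesenchymal stromal marker genes in each of the 12 libraries (points, x axis by group). Control adipogenic library 2, at 6887 FPKM of macrophage markers, lies below libraries 1 and 3 of its group (16387 and 16830 FPKM) and near the knockout libraries. Most of each macrophage sum is Lyz2, and the other macrophage markers have lower means in osteogenic knockout than in osteogenic control libraries.

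Upstream sequence is shown for Bmp4, the ligand that led to the choice of genes, and for Smad6 and Id2, a pair of pathway targets that took different directions in adipogenic medium. RefSeq promoter windows on GRCm38.p6 were matched by symbol for 8 of the 10 genes, and Bmp2 and Id1 had no entry. Each window holds the 250 bases before the RefSeq start on the gene's strand. The Bmp4 window (chr14:46390670-46390919, minus strand) and the Smad6 window (chr9:64022060-64022309, minus strand) overlap no exon of the GENCODE M21 annotation. For Id2 only the 89 bases farthest upstream are given (chr12:25096254-25096342, minus strand), because the rest lies in an annotated Id2 exon. The window of Id3 (chr4:136143572-136143821, plus strand) lies in an Id3 exon throughout and is not printed. Capitals mark the motif GGCGCC. The lines run 5′ to 3′.
Bmp4: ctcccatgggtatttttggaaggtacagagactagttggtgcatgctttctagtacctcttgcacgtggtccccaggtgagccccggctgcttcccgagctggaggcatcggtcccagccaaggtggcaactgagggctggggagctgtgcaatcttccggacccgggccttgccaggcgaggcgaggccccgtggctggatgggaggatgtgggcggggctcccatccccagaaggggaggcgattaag
Smad6: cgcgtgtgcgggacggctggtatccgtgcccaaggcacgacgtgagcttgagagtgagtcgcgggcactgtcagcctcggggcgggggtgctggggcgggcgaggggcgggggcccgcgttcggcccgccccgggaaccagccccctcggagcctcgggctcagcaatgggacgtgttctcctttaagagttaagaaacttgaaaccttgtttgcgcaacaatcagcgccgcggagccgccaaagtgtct
Id2: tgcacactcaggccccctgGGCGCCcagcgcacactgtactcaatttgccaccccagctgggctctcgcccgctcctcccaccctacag

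Both strands were searched for GGCGCC, a GC-rich site that SMAD1 and SMAD5 can bind, which is its own reverse complement, and for GTCTG or its reverse complement CAGAC, which holds the SMAD box. GGCGCC was present in the windows of 3 of the 8 genes, starting 231 bases before the RefSeq start in Id2, 198 in Bmpr1a and 105 in Bmpr2, and in 9.59% of all 32851 windows. GTCTG was present in 2 of the 8, starting 167 and 68 bases before the start in Id3 and 119 in Bmp6, and in 42.2% of all windows. Like that of Id3, the windows of Bmpr2 and Bmp6 have no bases outside annotated exons of their own gene, so their matches lie in exons. The printed Bmp4 and Smad6 windows hold neither short motif. A match is a run of letters and not a measured site, and binding at these windows was not part of the data used here.

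Of Bmp2, Bmp4 and Bmp6, Bmp4 was the most abundant in the knockout libraries and the one that separated the genotypes in both media. In osteogenic medium Bmp4, a ligand that drives bone formation, was 0.76, 0.529 and 0.478 FPKM in control and 2.25, 2.48 and 1.83 FPKM in knockout libraries. These values rest on 31, 20 and 19 fragments against 91, 101 and 75. In adipogenic medium Bmp4 was 0.947, 1.96 and 1.04 FPKM in control and 3.72, 6.14 and 6.65 FPKM in knockout libraries. Every knockout library lay above every control library of its medium, and control adipogenic library 2 was the highest of the controls. The ratio of mean FPKM, knockout to control, was 3.72 in osteogenic and 4.18 in adipogenic medium, and the log2 fold changes were 1.00 ± 0.202 and 1.48 ± 0.202 (SE). Without control adipogenic library 2 the adipogenic log2 fold change was 1.67.

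Between media, a comparison that did not choose the gene, Bmp4 was higher in adipogenic than in osteogenic medium in knockout libraries (log2 fold change 1.00 ± 0.202, adjusted p = 0.00476), with the groups apart. In control libraries the difference was 0.52 ± 0.202 and did not pass (adjusted p = 0.0872). The order of the 4 groups was therefore control osteogenic (0.589 ± 0.15 FPKM, SD, n = 3), control adipogenic (1.32 ± 0.556), knockout osteogenic (2.19 ± 0.331) and knockout adipogenic (5.5 ± 1.56). Neighbours in this order overlapped only in the middle, where control adipogenic library 2 (1.96 FPKM) lay above knockout osteogenic library 3 (1.83 FPKM).

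Bmp6, a ligand best known for iron control in the liver and also active on osteoblasts, was low in every library. It was 0.17, 0.275 and 0.16 FPKM in osteogenic control and 0.428, 0.624 and 0.676 FPKM in osteogenic knockout libraries, with no overlap. The 3 control libraries held 41 fragments in all and the 3 knockout libraries 122, a ratio of rates of 2.89 with an exact binomial 95% interval of 2.01 to 4.22 that covers counting error only. In adipogenic medium Bmp6 was 0.702, 0.49 and 0.617 FPKM in control and 0.355, 0.639 and 0.472 FPKM in knockout libraries, which overlapped (ratio of rates 0.824, interval 0.63 to 1.07). In control cells the adipogenic libraries were all above the osteogenic ones (ratio of rates 2.97, interval 2.07 to 4.34), and in knockout cells the ratio was 0.848 (interval 0.649 to 1.11).

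Bmp2, a potent inducer of bone, stayed between 0.239 and 0.644 FPKM. In osteogenic medium it was 0.485, 0.606 and 0.541 FPKM in control and 0.295, 0.502 and 0.239 FPKM in knockout libraries. In adipogenic medium it was 0.428, 0.282 and 0.399 FPKM in control and 0.644, 0.313 and 0.355 FPKM in knockout libraries. The genotypes overlapped in both media, with ratios of rates, knockout to control, of 0.634 (interval 0.457 to 0.873) and 1.21 (0.87 to 1.68). Two-sided exact permutation tests of the 8 comparisons of Bmp2 and Bmp6 gave p from 0.1, the smallest that 3 libraries against 3 allow, to 0.8, and from 0.267 to 0.8 after Benjamini-Hochberg adjustment, so this test could call none of them.

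**Figure D2:**
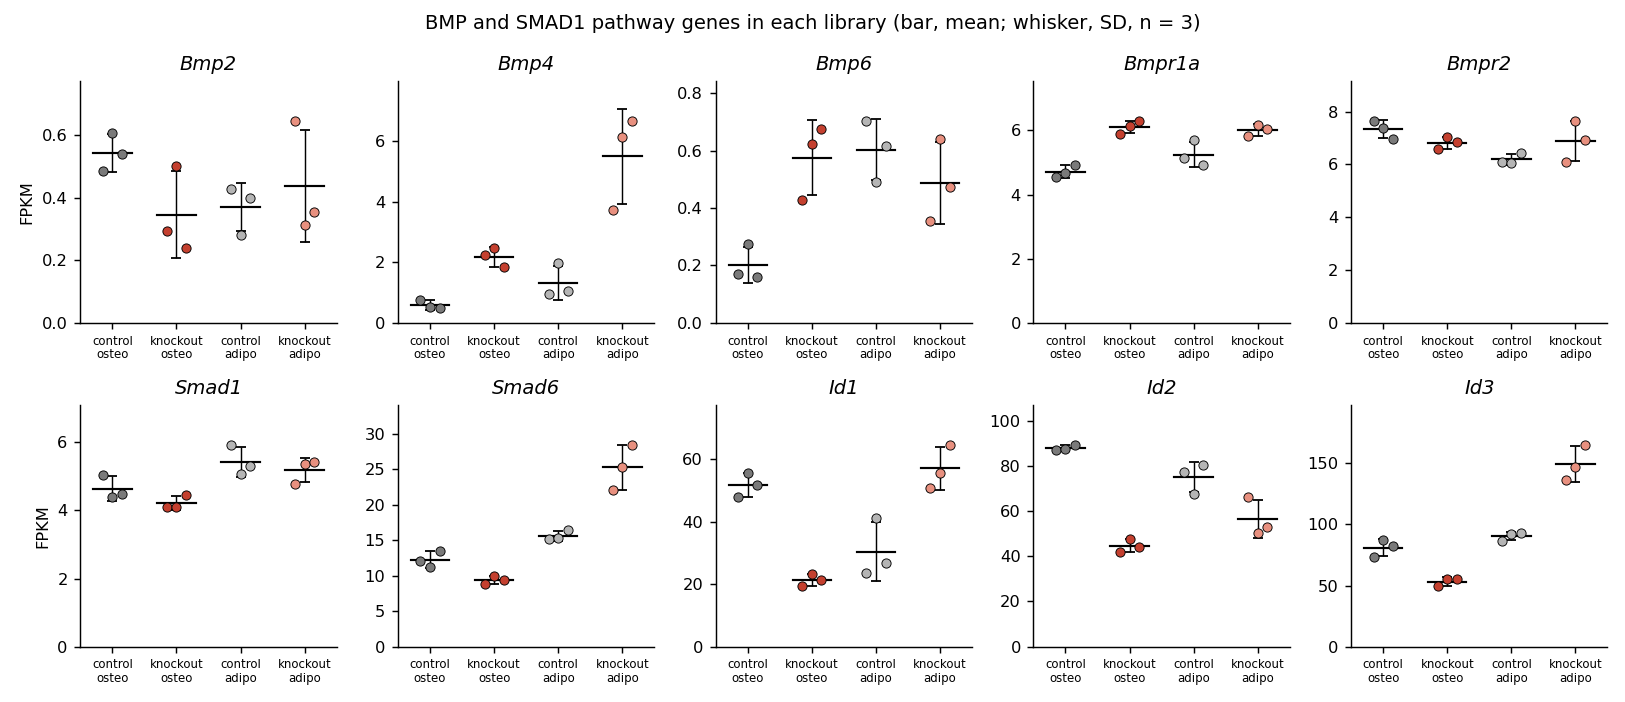
FPKM (y axis, linear from 0) of the 10 genes in the 12 libraries, by group on the x axis; points are libraries, the bar is the mean and the whisker the SD of 3 libraries. Bmp4 is higher in knockout libraries of both media, and Smad6, Id1 and Id3 are lower in knockout in osteogenic medium and higher in knockout in adipogenic medium.

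The receptors differed little between genotypes. Bmpr1a, a type I receptor, was 4.54, 4.68 and 4.92 FPKM in control and 5.9, 6.14 and 6.28 FPKM in knockout libraries under osteogenic induction. Adipogenic libraries had 5.13, 5.69 and 4.92 FPKM in control and 5.82, 6.18 and 6.03 FPKM in knockout libraries. Knockout was above control in each pair of groups. The log2 fold changes were 0.31 ± 0.0542 (adjusted p = 0.00605) and 0.17 ± 0.0542 (adjusted p = 0.0369), and they did not differ detectably between media (interaction -0.15 ± 0.0767, adjusted p = 0.204). With equal sums per library the osteogenic fold change was again 0.31 but did not pass (adjusted p = 0.134). The adipogenic call was lost when only the adipogenic libraries were fitted (adjusted p = 0.154) and passed in 2 of 6 fits that left out a library, with adjusted p up to 0.126 without control library 3.

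Bmpr2, the type II receptor, passed in neither genotype comparison. It was 7.63, 7.39 and 6.96 FPKM in control and 6.59, 7.04 and 6.84 FPKM in knockout libraries under osteogenic induction, which overlapped (log2 fold change -0.09 ± 0.0685, adjusted p = 0.495). After adipogenic induction the values were 6.09, 6.05 and 6.44 FPKM in control and 6.09, 7.63 and 6.93 FPKM in knockout libraries, also overlapping (0.13 ± 0.0685, adjusted p = 0.173). In control cells Bmpr2 was lower in adipogenic medium by a margin that only just passed (-0.21 ± 0.0685, adjusted p = 0.05 after rounding), and the call was lost in 6 of 6 fits that left out a library (adjusted p 0.0553 to 0.146). Without knockout adipogenic library 1, the genotype difference in adipogenic medium was 0.20 and passed (adjusted p = 0.0298), as it did under TPM (0.29, adjusted p = 0.031).

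Smad1, the transducer after which the set is named, had nearly the same level in control and knockout libraries. It was 5.05, 4.39 and 4.49 FPKM in control and 4.1, 4.11 and 4.46 FPKM in knockout libraries under osteogenic induction (log2 fold change -0.11 ± 0.07, adjusted p = 0.4). In adipogenic medium it was 5.92, 5.06 and 5.3 FPKM in control and 4.77, 5.35 and 5.41 FPKM in knockout libraries (-0.06 ± 0.07, adjusted p = 0.571). Both pairs of groups overlapped, and with equal sums per library the adipogenic value was 0.10. These are RNA levels, and phosphorylated SMAD1 protein was not part of these data.

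Smad6, the inhibitor of BMP receptor signalling, changed in opposite directions in the 2 media. In osteogenic medium it was 12, 11.2 and 13.5 FPKM in control and 8.89, 9.9 and 9.37 FPKM in knockout libraries, lower in knockout by a log2 fold change of -0.35 ± 0.0901 (adjusted p = 0.0404). Adipogenic libraries had 15.1, 15.3 and 16.4 FPKM in control and 22.1, 25.3 and 28.4 FPKM in knockout libraries, higher in knockout by 0.66 ± 0.0901 (adjusted p = 0.00053). The groups did not overlap in either medium. The difference between the 2 genotype effects was 1.00 ± 0.127 (interaction, adjusted p = 0.000629). The osteogenic call did not pass in any of 6 fits that left out a library (adjusted p 0.0559 to 0.143), whereas the adipogenic call passed in all 6.

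Id1, a direct BMP target, had the largest interaction of the 7 genes tested. In osteogenic medium it was 47.9, 55.6 and 51.7 FPKM in control and 19.4, 23.1 and 21.2 FPKM in knockout libraries, so every knockout library was below every control library and the control mean was 2.44 times that of knockout. The log2 fold change was -1.25 ± 0.175 (adjusted p = 0.00216). In adipogenic medium Id1 was 23.4, 41.1 and 26.6 FPKM in control and 50.8, 55.7 and 64.5 FPKM in knockout libraries, higher in knockout by 0.92 ± 0.175 (adjusted p = 0.00336). Control library 2 was the nearest to the knockout libraries, and without it the log2 fold change was 1.15 (adjusted p = 1.96e-05). Over the 6 fits that left out a library the log2 fold change was 0.76 to 1.15. When only the adipogenic libraries were fitted it was again 0.92 and only just passed (limma, adjusted p = 0.0464). The interaction was 2.17 ± 0.248 (adjusted p = 0.000324).

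Id3, the most abundant of the 3 targets in adipogenic medium, followed the same course with a smaller fold in osteogenic medium. It was 73.1, 86.9 and 82.5 FPKM in osteogenic control and 49.3, 55.1 and 55.4 FPKM in osteogenic knockout libraries (log2 fold change -0.59 ± 0.0849, adjusted p = 0.00244). After adipogenic induction the values were 86.6, 92.3 and 92.6 FPKM in control and 136, 147 and 165 FPKM in knockout libraries (0.71 ± 0.0849, adjusted p = 0.000227). The groups were apart in both media, and here control adipogenic library 2 sat with its own group. The interaction was 1.30 ± 0.12 (adjusted p = 9.56e-05).

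Id2, which responds to BMPs and to many other signals, was lower in knockout in both media. It was 86.9, 87.7 and 89.3 FPKM in osteogenic control and 41.9, 47.8 and 44.3 FPKM in osteogenic knockout libraries (log2 fold change -0.96 ± 0.0991, adjusted p = 0.000398). In adipogenic medium it was 77.2, 67.8 and 80.3 FPKM in control and 66.3, 50.3 and 53.2 FPKM in knockout libraries (-0.41 ± 0.0991, adjusted p = 0.0112). The groups did not overlap, though control library 2 and knockout library 1 lay close together. The deficit was smaller in adipogenic medium by 0.56 ± 0.14 (interaction, adjusted p = 0.0205), and without knockout osteogenic library 1 this was 0.51 (adjusted p = 0.0532). With equal sums per library the adipogenic difference was -0.22 (adjusted p = 0.0887), which no longer passed, nor did it when only the adipogenic libraries were fitted (-0.41, adjusted p = 0.0846).

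Of the 7 genes tested between genotypes without Bmp4, 1 rose (Bmpr1a) and 4 fell (Smad6, Id1, Id2 and Id3) in osteogenic knockout libraries. Over all genes 9.09% passed there, 4.94% higher and 4.15% lower. In adipogenic knockout libraries 4 rose (Bmpr1a, Smad6, Id1 and Id3) and 1 fell (Id2), where 33.2% of all genes passed, 16.7% higher and 16.5% lower. The interaction passed for 4 of 7, Smad6, Id1, Id2 and Id3, all more positive in adipogenic medium, against 20.4% of all genes, 10.9% more positive and 9.58% more negative. The median log2 fold change of the 7 genes was -0.35 in osteogenic and 0.17 in adipogenic medium, and that of all genes -0.01 in both. The genotype comparisons share no library, and the interaction is made from all 12. Without control adipogenic library 2 the adipogenic log2 fold changes were 0.22 for Bmpr1a, 0.64 for Smad6, 1.15 for Id1, -0.48 for Id2 and 0.73 for Id3, and the interactions of Smad6, Id1, Id2 and Id3 were 0.99, 2.40, 0.48 and 1.32, each still past the threshold.

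**Figure D3:**
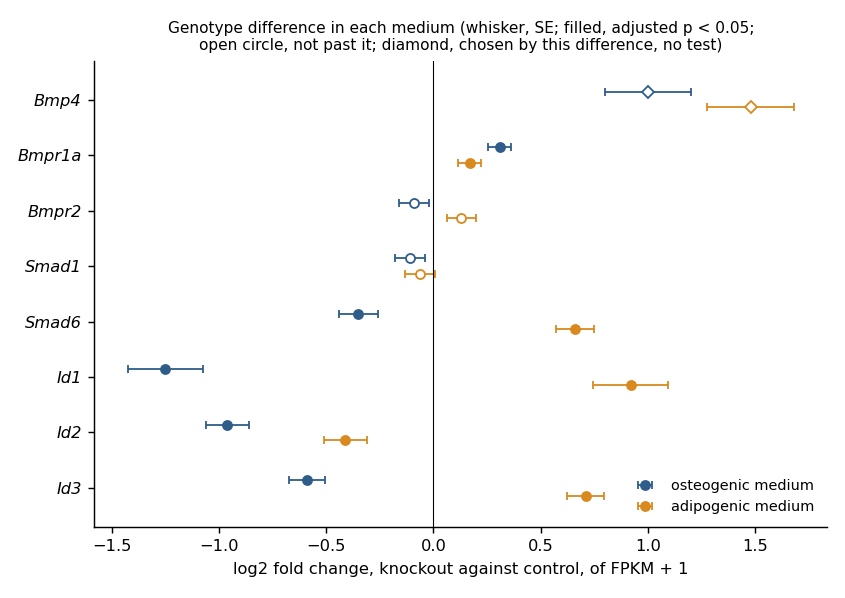
Log2 fold change of FPKM + 1, knockout against control (x axis), for the 8 genes that were tested (y axis), in osteogenic (blue) and adipogenic (orange) medium; whiskers are the SE, filled circles passed an adjusted p of 0.05 and the open diamonds of Bmp4 have no test. Smad6, Id1 and Id3 lie at -0.35, -1.25 and -0.59 in osteogenic and at 0.66, 0.92 and 0.71 in adipogenic medium.

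The scale mattered for the adipogenic comparison. The deposited FPKM summed to 349778.99 and 380097.42 in control adipogenic libraries 1 and 3 and to between 295244.11 and 318915.74 in the other 10 libraries. Rescaling each library to the same sum (TPM) moved the median gene by 0.15 in the adipogenic genotype comparison, 0.16 in the interaction and -0.11 between media in control cells (log2), and by -0.01 and 0.05 in the osteogenic genotype comparison and between media in knockout cells. The share of passing genes that were higher went from 50.4% to 78.3% in the adipogenic genotype comparison and from 53.1% to 75.3% in the interaction. Under TPM, Smad6, Id1 and Id3 were still higher in adipogenic knockout libraries (0.83, 1.10 and 0.90, adjusted p = 0.000202, 0.00458 and 0.000239) and still lower in osteogenic knockout libraries (-0.36, -1.26 and -0.60), with Smad6 there no longer past the threshold (adjusted p = 0.0758).

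The same genes can be read by medium within a genotype. In control cells 1 of the 8 genes was higher in adipogenic medium (Smad6, 0.33 ± 0.0901, adjusted p = 0.0277) and 2 were lower (Id1, -0.79 ± 0.175, adjusted p = 0.0127, and Bmpr2), where 22.8% of all genes passed, 10.5% higher and 12.3% lower. Smad6 passed in 2 of 6 fits that left out a library (adjusted p up to 0.101), and Id1 in 4 of 6 (adjusted p = 0.0503 without control osteogenic library 2 and 0.0518 without control adipogenic library 3). In knockout cells 6 of the 8 were higher in adipogenic medium and none lower, where 27.9% passed, 13.9% higher and 14% lower. These were Bmp4, Smad1, Smad6, Id1, Id2 and Id3. The share of passing genes that were higher was 46.1% in control and 49.7% in knockout cells, and 30.7% and 65.4% under TPM.

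Of the 6, Id3, Id1 and Smad6 had the largest differences between media in knockout cells, ahead of Bmp4 at 1.00. Id3 was higher by 1.47 ± 0.0849 (adjusted p = 2.81e-06), Id1 by 1.38 ± 0.175 (adjusted p = 0.000369) and Smad6 by 1.33 ± 0.0901 (adjusted p = 7.3e-06), and all 3 passed in every fit that left out a library. Smad1 was higher by 0.24 ± 0.07 (adjusted p = 0.0277) and Id2 by 0.33 ± 0.0991 (adjusted p = 0.0332), and each passed in 2 of 6 such fits (adjusted p up to 0.0959 and 0.11). The Id2 call was also lost when only the knockout libraries were fitted (adjusted p = 0.0535). In control cells Id3 did not pass (0.16 ± 0.0849, adjusted p = 0.184), nor did Id2 (-0.23 ± 0.0991, adjusted p = 0.118) or Smad1 (0.19 ± 0.07, adjusted p = 0.0782, and 0.0251 without control adipogenic library 2). The control and knockout comparisons of media share no library, and their difference is the interaction given above.

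A wider list of 56 other BMP pathway genes was read in the same way, and 35 of them were high enough to test. In osteogenic knockout libraries 3 of the 35 passed, all higher, where 4.94% of all genes were higher. These were Crim1, a membrane protein that binds BMPs (0.51 ± 0.0678, adjusted p = 0.00161), Twsg1, a secreted partner of chordin (0.29 ± 0.0753, adjusted p = 0.0423), and Smurf1, a ubiquitin ligase that targets SMAD1 and SMAD5 (0.21 ± 0.0492, adjusted p = 0.0271). Only Crim1 passed with equal sums per library and in all 6 fits that left out a library. The median of the 35 was 0.10. None of the 6 other target genes tested passed in osteogenic medium, where Id4, the fourth gene of the Id family, had a log2 fold change of -0.34 ± 0.161 (adjusted p = 0.235). When only the osteogenic libraries were fitted, 14 of the 35 passed, 12 higher and 2 lower, where 3418 of all 12871 genes passed. Among the 14 was Id4 (lower, adjusted p = 0.0163). Another was Hes1, best known as a Notch target and named after its values were seen (higher, log2 fold change 0.30, adjusted p = 0.0164).

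In adipogenic medium 24 of the 35 passed, 20 higher and 4 lower in knockout, with a median of 0.31, where 16.7% of all genes were higher and 16.5% lower. The ligand gene Bmp8a and the antagonist gene Nog are counted here although they passed the filter on low values only through the adipogenic knockout libraries and so had to differ, and without them 22 of 33 passed, 18 higher and 4 lower, with a median of 0.30. When only the adipogenic libraries were fitted, 14 of the 35 passed, 13 higher and 1 lower, where 1671 of all 12871 genes passed. Gdf6, a BMP-family ligand of joints and skeleton, was 0.224, 0.582 and 0.437 FPKM in control and 4.81, 7.13 and 6.91 FPKM in knockout libraries (log2 fold change 2.36 ± 0.139, adjusted p = 3.3e-06). Bmp8a was 0.43, 0.894 and 0.385 FPKM in control and 3.45, 4.63 and 5.84 FPKM in knockout libraries (1.84 ± 0.19). Both had non-overlapping groups. Bmp8a passed the filter on low values only through the adipogenic knockout libraries, in which it was high, so its difference is a description with no test. Bmp5 did not pass (0.19 ± 0.139, adjusted p = 0.324), and the other 9 ligands on the list were too low to test.

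The secreted antagonists went both ways in adipogenic medium. Noggin (Nog), which binds BMPs and blocks their receptors, was 0.574, 0.564 and 0.728 FPKM in control and 2.51, 4.16 and 4.41 FPKM in knockout libraries (1.51 ± 0.173), a description with no test for the reason given above. Follistatin (Fst), which binds activins and some BMPs, was 3.46, 3.47 and 4.18 FPKM against 10.4, 11.8 and 11.9 FPKM (1.40 ± 0.0825, adjusted p = 3.3e-06). Gremlin 1 (Grem1), the most abundant of these 3 antagonists, went down, from 112, 82.6 and 125 FPKM in control to 51.4, 41.6 and 40.7 FPKM in knockout libraries (-1.23 ± 0.136, adjusted p = 0.000146). Of 11 antagonists and modulators tested, 5 (Nog among them) were higher and 4 lower in knockout, with a median of 0.01. Among all genes 16.7% were higher and 16.5% lower.

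Receptors and SMADs of the wider list that passed had smaller fold changes in adipogenic knockout libraries. Smad9, the third BMP-responsive SMAD, was 1.03, 1.57 and 1.3 FPKM in control and 2.87, 3.34 and 3.89 FPKM in knockout libraries (0.93 ± 0.11, adjusted p = 0.000227). Smurf2, a ubiquitin ligase acting on SMADs and receptors, was 22.2, 32.2 and 23.4 against 40.3, 47.4 and 44.7 FPKM (0.76 ± 0.115, adjusted p = 0.000908). Smad7, the other inhibitory SMAD, was chosen for mention after its values were seen because it is the partner of Smad6, and it was higher by 0.65 ± 0.0624 (adjusted p = 6.47e-05), with 0.12 ± 0.0624 (adjusted p = 0.284) in osteogenic medium. In the fit to all 12 libraries, 4 of 10 SMADs and regulators and 3 of 5 receptors and co-receptors were higher in adipogenic knockout libraries, and none was lower. Among all genes 16.7% were higher and 16.5% lower there. Without control adipogenic library 2, 4 of the 10 were higher and 1 lower, and 3 of the 5 higher and 1 lower. When only the adipogenic libraries were fitted, 3 of the 10 and 1 of the 5 passed, all higher. The counts over all genes in these fits are given in the next paragraph.

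In the fit to all 12 libraries, all 6 of the other target genes tested were higher in adipogenic knockout libraries, with a median log2 fold change of 0.71. Among all genes 16.7% were higher there. Id4 was 4.95, 3.3 and 5.95 FPKM in control and 7.91, 10.5 and 10.4 FPKM in knockout libraries (0.91 ± 0.161, adjusted p = 0.00223). Without control adipogenic library 2, 5 of the 6 passed, and Msx2, named here because it was the exception, had 0.25 (adjusted p = 0.0502). Under TPM all 6 passed, where 3252 of all genes were higher and 900 lower. When only the adipogenic libraries were fitted 3 passed, where 1671 of all genes did. Without control adipogenic library 2 the count over all 35 genes was 26, 19 higher and 7 lower. In that fit 6569 of all 12871 genes passed.

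**Figure D4:**
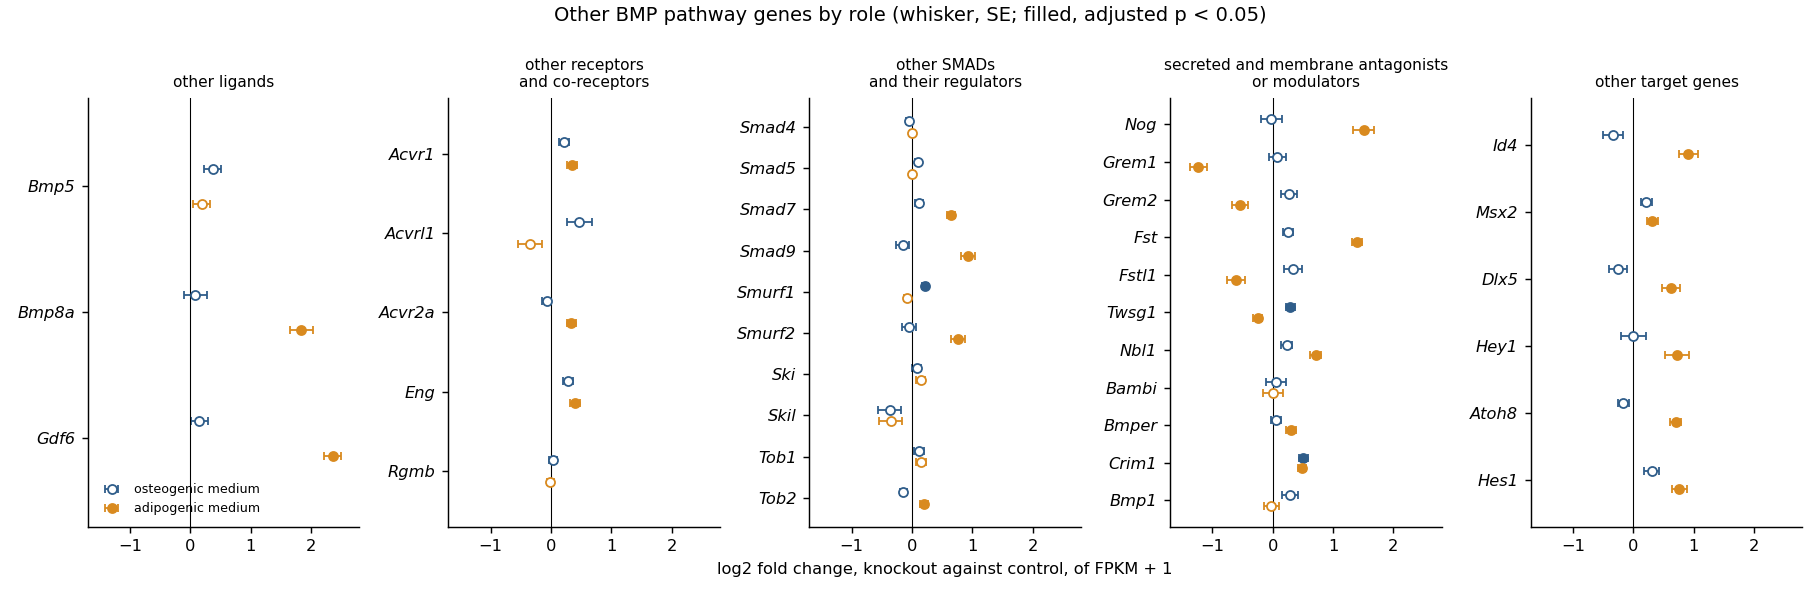
Log2 fold change of FPKM + 1, knockout against control (x axis), of the 35 other BMP pathway genes tested, in 5 panels by role, for osteogenic (blue) and adipogenic (orange) medium; whiskers are the SE and filled points passed an adjusted p of 0.05. In osteogenic medium 3 genes passed and in adipogenic medium 24, among them all 6 other target genes, where 9.09% and 33.2% of all genes passed. Bmp8a and Nog are drawn filled and counted among the 24, but entered only through the adipogenic knockout libraries, so their differences are descriptions. Without them 22 of 33 passed in adipogenic medium.

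The genotype effect differed between media for 18 of these 35 genes, 13 more positive and 5 more negative in adipogenic medium (10.9% and 9.58% of all genes). Without Bmp8a and Nog they were 16 of 33, 11 more positive and 5 more negative. By size the leading ones of these 33 were Gdf6 (interaction 2.20 ± 0.197, adjusted p = 7.82e-05) and Grem1 (-1.31 ± 0.192, adjusted p = 0.00138). Id4 (1.25 ± 0.228, adjusted p = 0.00428) joined Id1, Id2 and Id3, so the interaction passed for the 4 Id genes. Between media, 11 of the 35 passed in control cells, 8 higher and 3 lower in adipogenic medium, and 20 in knockout cells, 16 higher and 4 lower (18 of 33, 14 higher and 4 lower, without Bmp8a and Nog). Among all genes 22.8% passed in control and 27.9% in knockout cells. Atoh8, a helix-loop-helix factor induced by BMPs, had the widest difference between media in control cells (0.99 ± 0.0934, adjusted p = 0.000213) and in knockout cells (1.86 ± 0.0934, adjusted p = 1.19e-06).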

How the data were processed

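The authors deposited 1 table of FPKM for 54532 Ensembl genes in 12 libraries. The paper's software list includes HISAT2 and Ballgown, and the submitters' processing notes name Bowtie 0.12.2 and mm9. How strand was used is not given in the sources used here. GENCODE M21 supplied symbols for 54409 genes (99.8%) and the exonic lengths that turned FPKM into fragments, with 98.2% to 98.4% of values under 30 fragments whole to within 0.02 (4% by chance). Intervals cover counting error only.

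Group means of log2(FPKM + 1) over all 12 libraries were compared with limma 3.58.1 in R 4.3.3 (mean-variance trend, Benjamini-Hochberg adjustment). The procedure was also run on simulated data in which each gene had the same spread in every group. That run could not show how unequal spread between groups affects the p-values. The 10 genes, the lists of 56 pathway genes and of cell markers, and the tests were chosen with earlier results of these data known. Named are the 10 genes, Chd7, the markers and, per comparison, up to 8 other pathway genes that passed with groups apart (for the interaction, that passed), by fold size. In knockout libraries, of 8 mesenchymal markers tested 4 were higher in osteogenic and 3 higher and 2 lower in adipogenic medium, of 6 osteoblast markers 1 was lower and then 4 higher (Bglap, 1 of the 4, passed the filter only through adipogenic knockout libraries), and of 3 adipocyte markers 1 was lower and then 1 higher. Among all genes 9.09% passed in osteogenic and 33.2% in adipogenic medium. The alternatives were a pseudocount of 0.1, other filters, TPM, median-ratio scaling, no trend, only the libraries compared, a replicate block, voom on fragments and leaving out each library.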

Additional observations from a re-analysis of the deposited data

Results flagged for a closer look

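The genotype effect differed between the 2 media, by limma's interaction term at an adjusted p under 0.05, for the following genes. Among the 10 genes the difference, adipogenic minus osteogenic on the log2 scale, was 1.00 for Smad6, 2.17 for Id1, 0.56 for Id2 and 1.30 for Id3. Smad6, Id1 and Id3 were lower in knockout in osteogenic medium and higher in adipogenic medium (the osteogenic Smad6 call was lost under TPM). Id2 was lower in both media (the adipogenic call was lost under TPM). Among the other pathway genes it was 2.20 for Gdf6, 1.76 for Bmp8a, 1.53 for Nog, 1.25 for Id4, 1.13 for Fst and 1.07 for Smad9, each more positive in adipogenic medium (Bmp8a and Nog passed the filter on low values only through the adipogenic knockout libraries, so their values are descriptions), and -1.31 for Grem1 and -0.96 for Fstl1, a secreted follistatin-like glycoprotein. Of 8 macrophage markers 6 were lower in knockout in adipogenic medium (median -1.24, with 16.5% of all genes lower) and 1 in osteogenic medium (median -0.13, with 4.15% lower). These counts became 1 and 5, with 1 higher in osteogenic medium, when only the libraries compared were fitted. The part of macrophages in these differences was not tested.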

How the results depend on the processing

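Values are numbers of genes passing unless a log2 fold change is named, and the cause of each change was not tested. For osteogenic knockout against control, TPM gave 526 of all genes, 3 of the 7 BMP genes and 1 of the 35 other pathway genes, and fitting only the libraries compared gave 3418 of all and 14 of the 35. Leaving out a library gave 532 to 670 of all and 1 to 2 of the 35. For the adipogenic comparison, only the libraries compared gave 1671 of all, 3 of 7 and 14 of 35, and leaving out a library gave 2791 (without knockout adipogenic library 3) to 6569 (without control adipogenic library 2). The interaction gave 1798 to 5434 of all genes, the latter without control adipogenic library 2. Between media in control cells, only the libraries compared gave 490 of all, 0 of 8 (limma, with 5 of 8 at an unadjusted p under 0.05) and 1 of 35. Leaving out a library gave 1361 to 6156 of all, 0 to 3 of 8 (limma gave 0 without control osteogenic library 2 and without control adipogenic library 3, with 4 and 7 at an unadjusted p under 0.05) and 3 to 16 of 35. There the 35 gave 4 with no filter, 7 with an FPKM of 3 in 3 libraries and 7 under TPM. TPM reversed the log2 fold change of Smad1 in the adipogenic comparison (0.10), of Bmpr1a in the interaction (0.02) and of Bmpr1a between media in knockout cells (0.04), none of which passed. Leaving out a library moved the last from -0.04 to 0.00 and that of Bmpr2 from -0.06 to 0.08. Equal replicate numbers did not pair the libraries (correlations of deviations -0.286 to 0.466), and a replicate block gave 1018 of all genes in the osteogenic and 4167 in the adipogenic comparison. A replicate block within genotype gave 1722 in the interaction and, between media in control cells, 1943 of all and 5 of 35. With limma voom on the recovered fragments 1207 of all genes passed in the osteogenic and 4194 in the adipogenic comparison. Genes with few fragments, such as Bmp2 and Bmp6, are limited by depth.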
